A study of Mus musculus with 20 samples.

Results

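The insulin and insulin-like growth factor (IGF) pathway was followed through 9 genes: the receptors Igf1r and Insr, the receptor substrates Irs1 and Irs2, the kinases Akt1 and Akt2, and Mtor with Rptor and Rictor, which define its complexes. They were chosen by name from the 16014 named genes of the deposited table, as a growth pathway that LIN28 and let-7 regulate in other tissues, and all 9 were present and passed the filter on low values, which 15068 genes passed. The 20 libraries each hold RNA of 10 pooled blastocysts. All embryos were wild type, from a strain labelled F1 C57BL/6Jx129S1/SvlmJ, were injected as zygotes and were cultured in KSOM medium. The vehicle group (n = 7) received nuclease-free water, the Str let-7f group (n = 8) a mimic of let-7f-5p at a concentration based on the rise in sperm after paternal stress, and the 2x Str let-7f group (n = 5) the mimic at 2 times that concentration. No group received an unrelated mimic, the ages of the blastocysts are not given in the labels, and the pools mix embryos and all cells of each blastocyst.

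In this pathway insulin or an IGF binds a receptor tyrosine kinase, which phosphorylates IRS adaptor proteins. These recruit phosphoinositide 3-kinase, whose lipid product activates AKT, and AKT in turn relieves the TSC brake on mTOR. Complex 1, which contains RPTOR, promotes protein synthesis and growth, and complex 2, which contains RICTOR, phosphorylates AKT. In mice, LIN28 and let-7 act in opposite directions on insulin and PI3K-mTOR signalling in muscle and other tissues, where transcripts of several of these genes are let-7 targets. In the preimplantation embryo, insulin and IGF receptors are known for promoting growth and cell number, and mTOR activity is needed for the inner cell mass and trophectoderm to expand.

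The sequences of the mimic and of the sites it could pair with are shown because pairing of the seed, bases 2 to 8 of a microRNA, with a 3′ untranslated region (UTR) is the main known route by which let-7 lowers a transcript. The mimic is identical to the mature let-7f-5p of RefSeq (GRCm38.p6), which 2 mouse genes encode. It is given 5′ to 3′ with the seed in capitals.
let-7f-5p mimic: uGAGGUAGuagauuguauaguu

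Of the 9 genes, 8 held at least 1 seed match in the longest annotated 3′ UTR (GENCODE M21, on GRCm38), and Rptor held none in 1925 bases. The 8-base match CTACCTCA was found in 4 of them, Igf1r, Insr, Irs2 and Rictor. The others held the 7-base matches CTACCTC or TACCTCA, each counted only outside an 8-base match and on the transcribed strand only. Among all tested genes with an annotated 3′ UTR, 2340 of 13305 (17.6%) held any of these matches and 500 (3.76%) held the 8-base match. UTR lengths differ, with a median of 2685 bases for the 9 genes and 1197 bases for all tested genes, and longer UTRs hold more matches. The 9 genes were also chosen as a pathway that let-7 regulates, so their share of matches is not independent of that choice. A match is a stretch of letters and not a measured site.

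The 4 genes with an 8-base match are shown with their matches in capitals, each as 26 bases of the transcript. The Igf1r match (chromosome 7) lies at bases 2724 to 2731 of a 7267-base UTR, that of Insr (chromosome 8) at 2464 to 2471 of 4747, that of Irs2 (chromosome 8) at 475 to 482 of 2329 and that of Rictor (chromosome 15) at 1860 to 1867 of 4165.
Igf1r 8-base: tttttcaaacatttatCTACCTCAct
Insr 8-base: ttcttctcagtacagtCTACCTCAgt
Irs2 8-base: caaaactaccacagtcCTACCTCAgt
Rictor 8-base: acattcattttaaacaCTACCTCAgt

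Akt1 (chromosome 12), Akt2 (chromosome 7), Mtor (chromosome 4) and Irs1 (chromosome 1) held a single 7-base match each, shown to set them beside the 8-base matches. Igf1r held 2 further 7-base matches and Insr 1.
Akt1 7-base: tactgtgggcagcagcCTACCTCcca
Akt2 7-base: caggacacgttcctgcCTACCTCtgg
Mtor 7-base: gcactccactatcctgtTACCTCAcc
Irs1 7-base: gataatgatcccatattTACCTCAtg

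For reference, Lin28a (chromosome 4), a gene named in earlier results of these data as lower in mimic pools, held 2 8-base matches in a 2775-base UTR, and Trim71 (chromosome 9), likewise lower, held 4 in 5512 bases.
Lin28a 8-base, at bases 909 to 916: tgcacagcctgttgaaCTACCTCAtt
Lin28a 8-base, at bases 1547 to 1554: tgagatcgccacaaacCTACCTCAct
Trim71 8-base, at bases 166 to 173: caacattgcctaagtcCTACCTCAgc

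Recovered depth ran from 3.30 to 46.6 M reads in vehicle pools, 1.54 to 58.8 M in Str let-7f pools and 1.94 to 27.2 M in 2x Str let-7f pools. Markers of the 3 blastocyst lineages were present in every group. The summed level of 6 trophectoderm markers was 69095 to 103580 normalized counts in vehicle, 66930 to 108609 with Str let-7f and 79403 to 117797 in 2x Str let-7f pools. Of 5 epiblast markers 4 were in the table, with sums of 3665 to 8372 over all pools, and the sums of 4 primitive endoderm markers were 4242 to 7633, with overlapping ranges between the groups for both. Of 5 sperm markers none was in the table, of 5 cumulus markers 1 was (at most 22.4 normalized counts) and of 5 blood markers 2 were (at most 58.0).

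None of the 9 genes passed the test in any comparison, at either concentration. By limma on log2(normalized count + 1), 0 of 9 were called for Str let-7f against vehicle, where 2.63% of all 15068 tested genes were called (1.84% higher and 0.796% lower). For 2x Str let-7f against vehicle 0 of 9 were called, against 1.89% of all tested genes (1.23% higher and 0.664% lower). The average of both mimic groups against vehicle gave 0 of 9, against 4% of all tested genes (2.67% higher and 1.33% lower). Between the 2 mimic groups 0 of 9 were called, and 0% of all tested genes. A count of 0 of 9 lies near these background shares. The median log2 fold change of the 9 was -0.15, -0.09, 0.003 and 0.07 in the 4 comparisons in that order, against -0.02, -0.01, -0.01 and 0.003 for all tested genes. In each of the 4 comparisons 1 of the 9 had an unadjusted p under 0.05, which was Insr in the 3 against vehicle and Akt2 between the mimic groups. The same was true of 14.9%, 12.9%, 16.3% and 4.04% of all tested genes in those comparisons. Neither edgeR nor DESeq2 on recovered reads called any of the 9. The comparisons against vehicle share the vehicle pools, so their values are not independent of each other. In pools of whole embryos, fewer cells of a type and less RNA per cell cannot be told apart.

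**Figure D1:**
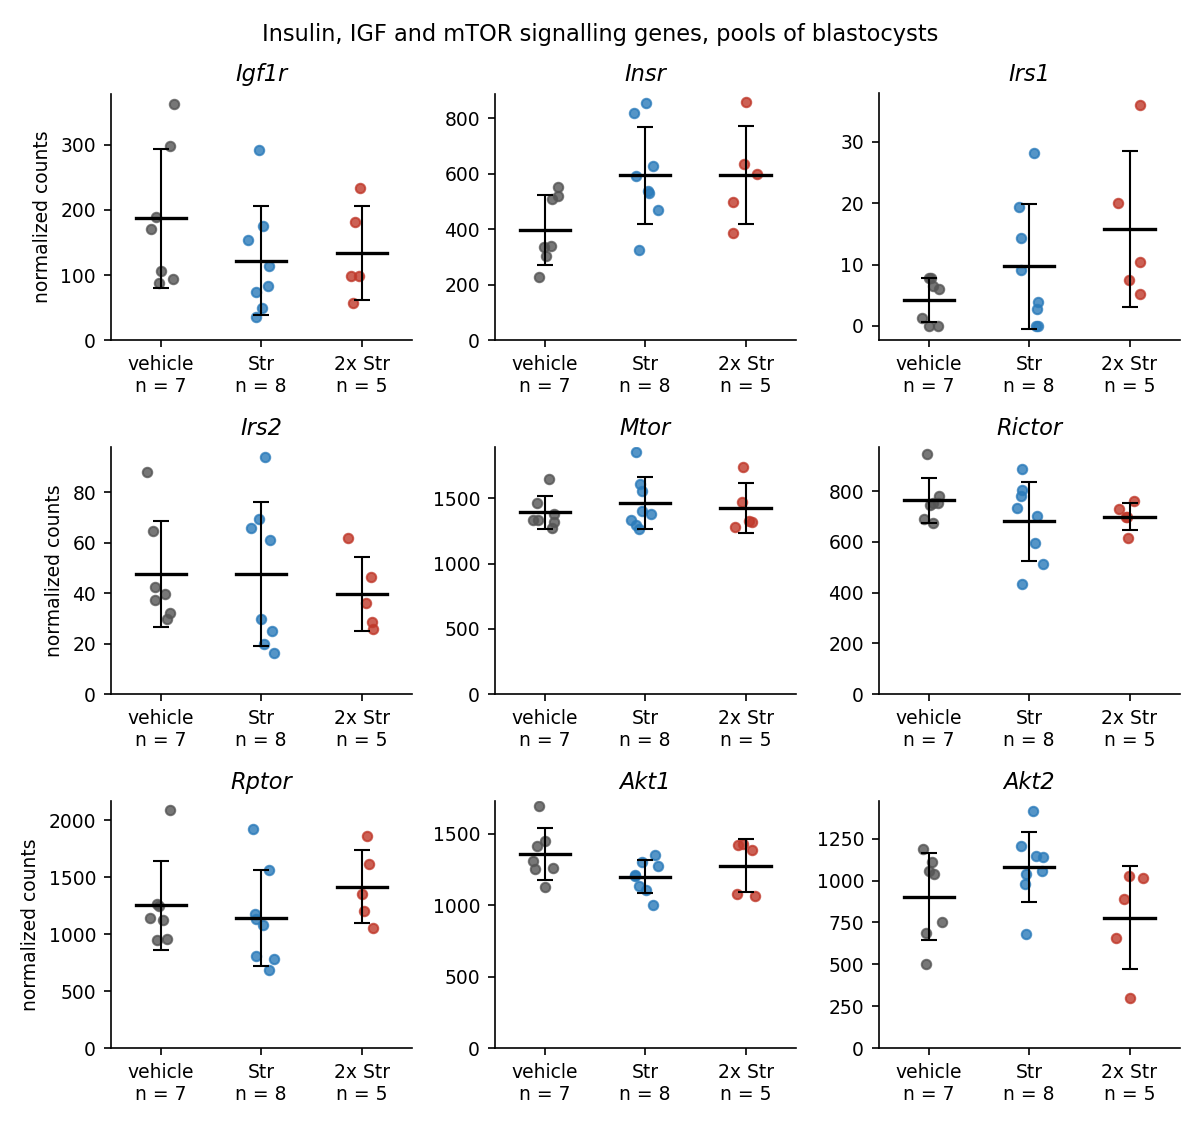
Normalized counts of the 9 genes (y axis, linear, a separate scale for each gene) in vehicle, Str let-7f and 2x Str let-7f pools (x axis). Points are pools, horizontal bars are means and error bars are SD; the groups overlap for every gene, and Insr has 4 of 8 Str let-7f pools and 3 of 5 2x Str let-7f pools above the highest vehicle pool at 553 normalized counts.

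The insulin receptor gene Insr had the smallest p of the 9 against vehicle, on the side of higher levels. Vehicle pools ran from 229 to 553 normalized counts (median 340.0) and averaged 399 ± 126 (SD, n = 7). Str let-7f pools ran from 327 to 857 (median 564) and averaged 595 ± 175 (n = 8). The 2x Str let-7f pools stood at 598, 386, 858, 635 and 499 normalized counts and averaged 595 ± 176 (n = 5). Of the Str let-7f pools 4 of 8 lay above every vehicle pool and 7 of 8 above the vehicle median, and of the 2x Str let-7f pools 3 of 5 and 5 of 5. No mimic pool lay below every vehicle pool, and both mimic groups overlapped the vehicle group.

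Insr had a log2 fold change of 0.58 ± 0.22 (SE) for Str let-7f (limma adjusted p = 0.191, unadjusted 0.0145). For 2x Str let-7f it was 0.59 ± 0.25 (limma adjusted p = 0.299). With both mimic groups averaged it was 0.59 ± 0.20, a 1.503-fold level with a 95% interval from 1.13 to 2.01, and limma's adjusted p was 0.118. The mimic groups differed in Insr by 0.01 ± 0.24 on the log2 scale, with a 95% interval from -0.49 to 0.51. The interval for both mimic groups does not include a level below that of vehicle, although the p did not pass adjustment over 15068 genes.

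Igf1r, which encodes the receptor for IGF1 and IGF2, was spread widely within every group. Vehicle pools ran from 87.4 to 363 normalized counts (median 170.3) and averaged 187 ± 107. Str let-7f pools ran from 35.0 to 292 (median 98.4) and averaged 122 ± 84.0, and the 2x Str let-7f pools stood at 234, 97.8, 98.4, 56.8 and 182 and averaged 134 ± 72.1. Of the Str let-7f pools 4 of 8 lay below every vehicle pool, and of the 2x Str let-7f pools 1 of 5. The SD was 57.1% of the mean in vehicle, 68.9% with Str let-7f and 53.9% with 2x Str let-7f. Igf1r had a log2 fold change of -0.71 ± 0.42 for Str let-7f (limma adjusted p = 0.462) and -0.46 ± 0.48 for 2x Str let-7f (limma adjusted p = 0.771). Over both mimic groups, the 95% interval of the fold ran from 0.382 to 1.16. These pools therefore allow a level of Igf1r from well below to slightly above that of vehicle.

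Irs1 and Irs2 encode the adaptor proteins that carry the signal from both receptors, and both were low. Irs1 had 60 reads in all vehicle pools together, 113 with Str let-7f and 74 with 2x Str let-7f. Vehicle pools ran from 0 to 7.80 normalized counts (median 5.94), Str let-7f pools from 0 to 28.1 (median 6.46), and the 2x Str let-7f pools stood at 20.0, 36.0, 10.4, 5.16 and 7.44. Of the 2x Str let-7f pools 3 of 5 lay above every vehicle pool, and of the Str let-7f pools 4 of 8. Irs1 had 0 reads in 4 pools, namely Str let-7f replicates 1 and 9 and vehicle replicates 6 and 8. In these a floor of 3 reads equals 5.87, 19.0, 8.03 and 9.25 normalized counts, so levels below these could not be told from 0 there. The 5.16 of 2x Str let-7f replicate 4 was 1 read, below the floor of 15.5 in that library. For Irs1 the log2 fold change was 0.70 ± 0.81 for Str let-7f (limma adjusted p = 0.757) and 1.88 ± 0.92 for 2x Str let-7f (limma adjusted p = 0.393), with a 95% interval of -0.02 to 3.78 for the latter.

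Irs2 averaged 47.8 ± 21.1 normalized counts in vehicle, 47.7 ± 28.6 with Str let-7f and 39.8 ± 14.7 with 2x Str let-7f. The Str let-7f pools ran from 16.5 to 94.0 (median 45.4), beyond the vehicle range of 29.9 to 88.0 (median 39.9) at both ends. The 2x Str let-7f pools stood at 62.0, 36.0, 25.9, 46.5 and 28.7. On the log2 scale the fold change of Irs2 was -0.15 ± 0.40 for Str let-7f (limma adjusted p = 0.916) and -0.23 ± 0.45 for 2x Str let-7f (limma adjusted p = 0.896). For both groups averaged, the 95% interval of the fold ran from 0.519 to 1.481.

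Akt1 and Akt2 encode serine/threonine kinases at the centre of the pathway. AKT1 is known mainly for growth and survival and AKT2 for the metabolic response to insulin. Akt1 averaged 1359 ± 181 normalized counts in vehicle (1129 to 1692, median 1309), 1199 ± 115 with Str let-7f (1004 to 1355, median 1211) and 1275 ± 185 with 2x Str let-7f (1384, 1081, 1427, 1420 and 1065). Only 1 of 8 Str let-7f pools lay above the vehicle median, and 2 of 8 lay below every vehicle pool. Akt1 had a log2 fold change of -0.18 ± 0.11 for Str let-7f (limma adjusted p = 0.469) and -0.09 ± 0.12 for 2x Str let-7f (limma adjusted p = 0.829). The 95% interval of the fold for both mimic groups averaged ran from 0.793 to 1.05.

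Akt2 averaged 905 ± 258 normalized counts in vehicle (499 to 1186, median 1038) and 1083 ± 209 in Str let-7f pools (684 to 1416, median 1099). The 2x Str let-7f pools stood at 300.0, 656, 1029, 1017 and 891, with an average of 779 ± 307, and each of them lay below the medians of both other groups. Against vehicle, the log2 fold change was 0.29 ± 0.23 for Str let-7f (limma adjusted p = 0.611) and -0.29 ± 0.26 for 2x Str let-7f (limma adjusted p = 0.728). From Str let-7f to 2x Str let-7f, Akt2 differed by -0.58 ± 0.26 (unadjusted p = 0.0337, limma adjusted p = 1.00 as rounded from 0.9997), with a 95% interval from -1.11 to -0.05. Of the 2x Str let-7f pools 2 of 5 lay below every Str let-7f pool. With 1 library left out, the Akt2 difference between the mimic groups ran from -0.71 to -0.27. The lowest pool, 2x Str let-7f replicate 1 at 300.0, held 150 reads of Akt2. Without it the 2x Str let-7f value against vehicle was 0.025.

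Mtor, the kinase of both complexes, had the smallest SE of the 9 in each comparison. Vehicle pools averaged 1393 ± 127 normalized counts (1275 to 1648, median 1336), Str let-7f pools 1462 ± 200 (1264 to 1858, median 1391) and 2x Str let-7f pools 1426 ± 188 (1736, 1282, 1325, 1472 and 1315). Mtor had a log2 fold change of 0.06 ± 0.10 for Str let-7f (limma adjusted p = 0.841) and 0.03 ± 0.11 for 2x Str let-7f (limma adjusted p = 0.951). For both averaged, the fold was 1.03 with a 95% interval from 0.904 to 1.18.

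Rictor, the scaffold of complex 2, averaged 764 ± 89.0 normalized counts in vehicle (676 to 946, median 752), 681 ± 155 with Str let-7f (433 to 888, median 719) and 700.0 ± 53.4 with 2x Str let-7f (730.0, 698, 697, 759 and 617). Of the Str let-7f pools 3 of 8 lay below every vehicle pool, and none lay above all of them. Rictor had a log2 fold change of -0.19 ± 0.14 for Str let-7f (limma adjusted p = 0.563) and -0.12 ± 0.16 for 2x Str let-7f (limma adjusted p = 0.833).

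Rptor, the scaffold through which complex 1 binds its substrates, averaged 1255 ± 390 normalized counts in vehicle (951 to 2095, median 1147), 1145 ± 421 with Str let-7f (690.3 to 1922, median 1107) and 1417 ± 322 with 2x Str let-7f (1614, 1207, 1053, 1859 and 1351). The vehicle SD rested largely on replicate 2, at 2095, with the other vehicle pools at 951 to 1266. Rptor had a log2 fold change of -0.16 ± 0.20 for Str let-7f (limma adjusted p = 0.779) and 0.19 ± 0.23 for 2x Str let-7f (limma adjusted p = 0.811).

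**Figure D2:**
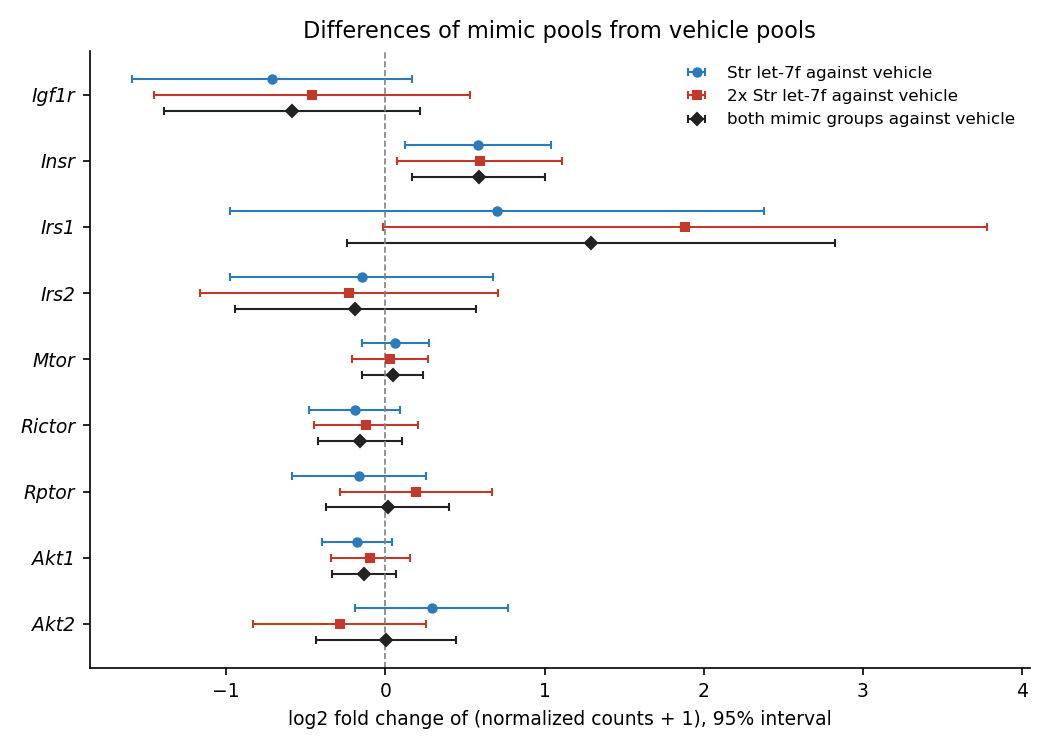
Log2 fold change of (normalized counts + 1) for the 9 genes (y axis) in 3 comparisons against vehicle (x axis), from limma over all 20 libraries. Points are estimates and bars are 95% intervals; those of Mtor are narrow and include 0, those of Irs1 are the widest, and those of Insr lie above 0 before adjustment over all genes.

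Per length, the 9 genes differed widely in level, and the mimic groups kept much of the order seen in vehicle. Normalized counts were divided by the length of the longest coding transcript (GENCODE M21), so a gene with shorter transcripts in the embryo is understated. In vehicle pools Akt1 stood highest at 505 ± 67.3 normalized counts per kb, followed by Akt2 at 199 ± 56.7, Rptor at 190.4 ± 59.2 and Mtor at 163 ± 14.8. The ranges of these last 3 overlapped, and Akt2 exceeded Rptor in 4 of 7 pools and Rptor exceeded Mtor in 4 of 7. Rictor followed at 82.0 ± 9.56 and Insr at 42.6 ± 13.5, with no overlap between Mtor and Rictor or between Rictor and Insr. Igf1r stood at 16.4 ± 9.37 normalized counts per kb, Irs2 at 7.56 ± 3.34 and Irs1 at 0.458 ± 0.394. Insr exceeded Igf1r in 6 of 7 vehicle pools with overlapping ranges, and in all mimic pools with ranges that did not overlap within either mimic group. Rictor and Insr, apart in vehicle, overlapped in both mimic groups, where Rictor was the higher in 5 of 8 and in 4 of 5 pools.

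**Figure D3:**
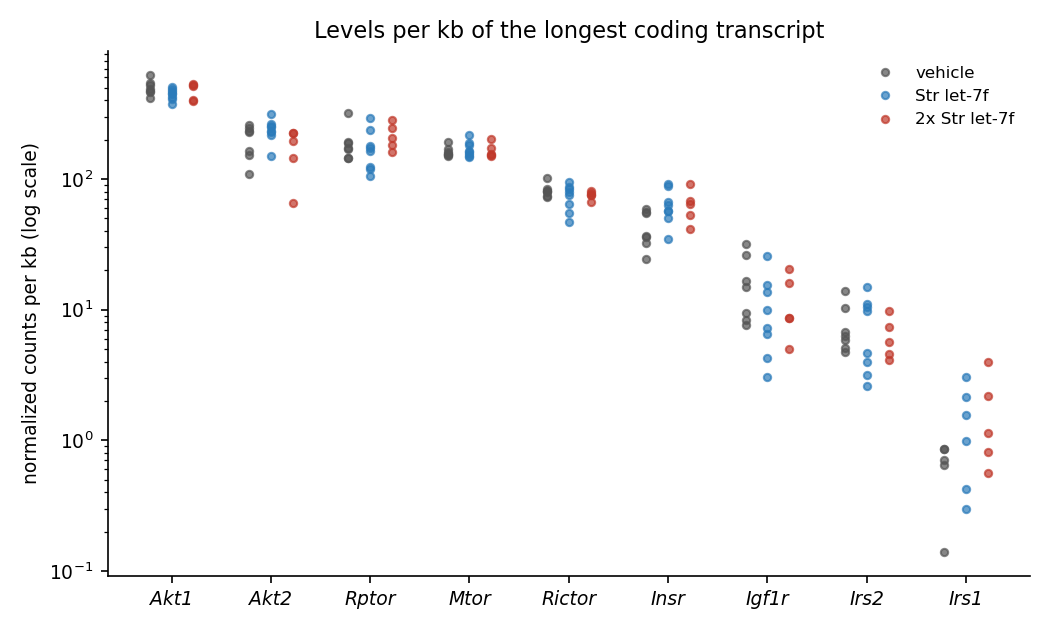
Normalized counts per kb of the longest coding transcript (y axis, log scale) for the 9 genes (x axis, ordered by vehicle mean), each point a pool, coloured by group. The 4 pools with 0 reads of Irs1 are not drawn; Akt1 has the highest mean and Irs1 the lowest in every group.

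Likeness between patterns was measured by Pearson's r across all 20 pools after each group's mean was subtracted on the log2 scale, among 9097 other genes averaging at least 100 normalized counts. For Igf1r the most similar genes were Ktn1 (r = 0.811), Gga2 (0.795) and Bahcc1 (0.753). For Insr they were Ykt6 (0.780), Rad54l2 (0.752) and Pja2 (0.747), and for Mtor they were Sdf4 (0.835), Pla2g10 (0.825) and Chtf18 (0.758). These are the highest of 9097 values each, over 20 pools that differ in depth, and are descriptions with no test. Among the 9 genes the highest r over all 20 pools was that between Igf1r and Irs2 (0.565). In the 15 pools over 5 M reads it was 0.638, and that between Rptor and Irs2 was 0.662 (0.455 over all 20). The highest r of Mtor to another member was 0.395, with Igf1r, and that of Insr was 0.211, with Akt1.

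The matches to the let-7 seed can be set beside these values. Lin28a fell by 1.33 ± 0.17 on the log2 scale with both mimic groups averaged (limma adjusted p = 4.4e-05) and Trim71 fell by 0.80 ± 0.13 (limma adjusted p = 0.000638), with all 13 mimic pools below every vehicle pool for both genes. In the same comparison the 4 members with an 8-base match stood at -0.58 ± 0.39 (Igf1r), 0.59 ± 0.20 (Insr), -0.19 ± 0.37 (Irs2) and -0.16 ± 0.13 (Rictor), none of which passed. Igf1r, Irs2 and Rictor lay on the lower side and Insr on the higher side. Rptor, without a match, stood at 0.01 ± 0.19. Of 500 tested genes with an 8-base match, 16 fell and 6 rose in this comparison, with a median log2 fold change of -0.06. Of 1840 genes with a 7-base but no 8-base match, the class of Akt1, Akt2, Mtor and Irs1, 36 fell and 38 rose, with a median of -0.01. Of 10965 genes with no match, 143 fell and 324 rose, with a median of -0.01. Of the 10 pathway list genes with an 8-base match, which include Igf1, Igf2r, Pik3cb, Prkaa2, Fnip1 and Sesn3 beside the 4 members, 0 were called and 7 lay below 0 (median -0.12), against 280 of all 500 genes with such a match and 7748 of all 15068 tested genes.

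**Figure D4:**
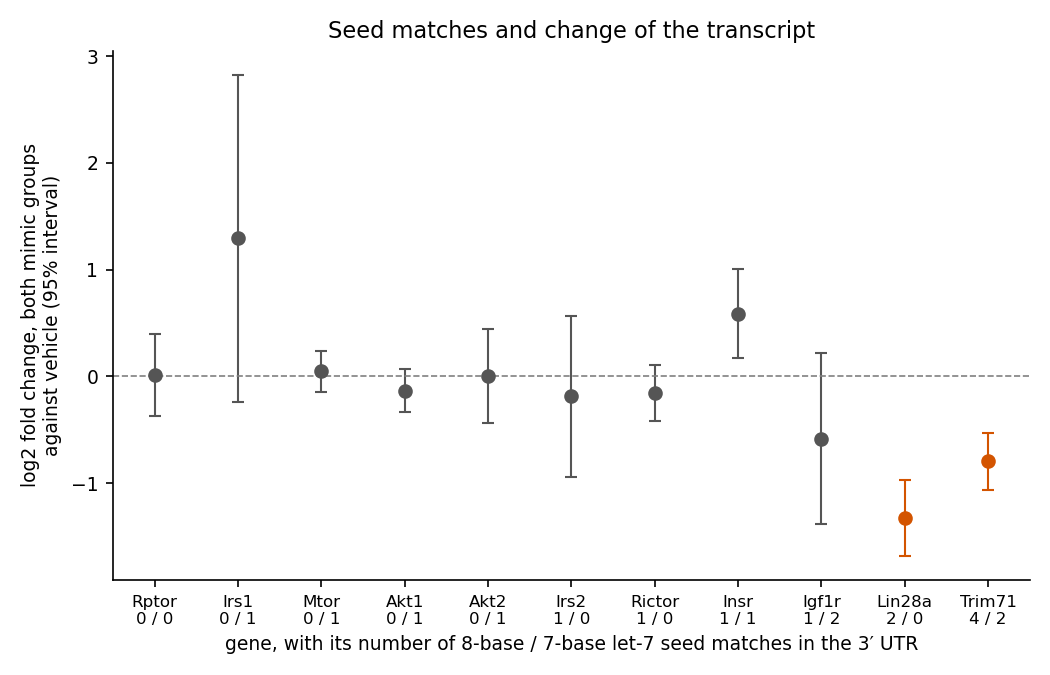
Log2 fold change with 95% interval, both mimic groups averaged against vehicle (y axis), for the 9 genes and for Lin28a and Trim71 (x axis), with the number of 8-base and 7-base seed matches written under each name. Lin28a and Trim71, in orange, passed at an adjusted p under 0.05, and the 9 members, in grey, did not.

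Around these 9 genes, a list of 114 pathway genes by role, the 9 included, was examined, of which 103 were in the table and all of those were tested. For Str let-7f, 2 of 103 rose and 0 fell (1.94%, against 2.63% of all tested genes), with a median log2 fold change of 0.03 against -0.02 for all tested genes. For 2x Str let-7f, 1 rose and 0 fell (0.971%, against 1.89%), with a median of -0.02 against -0.01. Averaged over both mimic groups, 4 rose and 3 fell (6.80%, against 4%), with a median of -0.01 in each set. From Str let-7f to 2x Str let-7f 0 of 103 were called by limma, edgeR or DESeq2. There 4 (3.88%) had an unadjusted limma p under 0.05, against 4.04% of all tested genes. For Str let-7f, 2x Str let-7f and both averaged against vehicle, 25, 18 and 28 of 103 did (24.3%, 17.5% and 27.2%). The shares of all tested genes were 14.9%, 12.9% and 16.3%. The difference between these shares was not tested.

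Among AKT substrates, Tbc1d4 rose in both mimic groups. It encodes a RAB GTPase-activating protein, also called AS160, through which AKT controls the delivery of glucose transporters to the surface of muscle and fat cells. Vehicle pools ran from 0 to 23.8 normalized counts (median 13.0), Str let-7f pools from 45.5 to 124 (median 75.4), and the 2x Str let-7f pools stood at 96.0, 72.1, 57.4, 93.0 and 91.8. All 13 mimic pools lay above every vehicle pool. The mean rose from 13.4 ± 8.37 in vehicle to 75.3 ± 26.4 with Str let-7f and 82.0 ± 16.7 with 2x Str let-7f. The log2 fold change was 2.81 ± 0.52 for Str let-7f (limma adjusted p = 0.00324) and 2.98 ± 0.59 for 2x Str let-7f (limma adjusted p = 0.00796). The call held in all 31 alternative settings, at both concentrations. Vehicle pools together held 170 reads of Tbc1d4, and vehicle replicate 8 held 0, where a floor of 3 reads equals 9.25 normalized counts. With 1 library left out, the log2 fold change ran from 2.24 to 3.02 for Str let-7f and from 2.42 to 3.19 for 2x Str let-7f.

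Foxo6, a forkhead transcription factor that AKT phosphorylates, rose in Str let-7f pools. It went from 63.0 ± 28.02 normalized counts in vehicle (30.8 to 108, median 58.1) to 134 ± 37.3 with Str let-7f (88.7 to 199, median 118) and stood at 109 ± 37.7 in 2x Str let-7f pools. Of the Str let-7f pools 6 of 8 lay above every vehicle pool. The log2 fold change was 1.15 ± 0.29 for Str let-7f (limma adjusted p = 0.0320) and 0.83 ± 0.33 for 2x Str let-7f, which did not pass (limma adjusted p = 0.259). The mimic groups differed by -0.32 ± 0.32 (limma adjusted p = 1.00 as rounded from 0.9997). The call for Str let-7f was lost when any 1 of Str let-7f replicates 1, 2 and 10 or vehicle replicates 3, 6, 7 and 8 was left out (adjusted p up to 0.0730), with the replicate number as a block (0.0802) and in the libraries over 5 M reads (0.0961).

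With both mimic groups averaged, 5 further list genes passed. Inppl1, which encodes the phosphatase SHIP2 that removes the lipid product of PI3K, rose by 0.65 ± 0.17 log2 units (limma adjusted p = 0.0303), from 300.1 ± 96.4 to 462 ± 98.2 and 456 ± 63.7 normalized counts. Castor1, an arginine sensor that holds complex 1 in check, rose by 0.66 ± 0.17 (limma adjusted p = 0.0313). Seh1l, a component of the GATOR2 complex of nutrient sensing and of the nuclear pore, fell by 0.38 ± 0.10 (limma adjusted p = 0.0267), with all 13 mimic pools below every vehicle pool. Rhebl1, a homolog of the mTOR activator RHEB, fell by 1.39 ± 0.38 (limma adjusted p = 0.0397), from 67.3 ± 26.9 to 31.0 ± 15.9 and 24.4 ± 17.3 normalized counts. Pdcd4, an inhibitor of translation that S6 kinase marks for destruction, fell by 0.44 ± 0.12 (limma adjusted p = 0.0427), from 4199 ± 918 to 3054 ± 582 and 3044 ± 224 normalized counts. Foxo6 was also called in this comparison (0.99 ± 0.27, limma adjusted p = 0.0339), as was Tbc1d4 (2.89 ± 0.47, limma adjusted p = 0.000685). All 7 called genes, Seh1l, Rhebl1 and Pdcd4 included, were among the 76 of 103 list genes with no seed match in the longest annotated 3′ UTR.

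Apart from that of Tbc1d4, these calls were lost when single libraries were left out; the highest adjusted p so reached is given for each. The Seh1l call was lost without vehicle replicate 2 or 3 (0.0812). That of Inppl1 was lost without vehicle replicate 2, 3, 5 or 6 or 2x Str let-7f replicate 4 (0.0840), and that of Castor1 without vehicle replicate 2, 3, 6, 7 or 8 or 2x Str let-7f replicate 4 (0.0750). That of Foxo6 was lost without vehicle replicate 2, 3, 6, 7 or 8, 2x Str let-7f replicate 1, 3 or 5 or Str let-7f replicate 10 (0.0884). That of Pdcd4 was lost without vehicle replicate 1, 2, 3, 5 or 8, any 2x Str let-7f pool or Str let-7f replicate 6, 7 or 9 (0.123). That of Rhebl1 was lost without vehicle replicate 1, 2, 3, 5, 6 or 8, 2x Str let-7f replicate 1, 4 or 5 or Str let-7f replicate 3, 5, 6, 7 or 10 (0.110). With the replicate number as a block, only Tbc1d4 and Pdcd4 kept their calls among the 7, the others reaching an adjusted p of 0.0721 (Inppl1) to 0.160 (Castor1). In the libraries over 5 M reads all 6 calls were lost, with an adjusted p of 0.0840 for Inppl1, 0.0847 for Rhebl1, 0.0971 for Foxo6, 0.0993 for Seh1l and 0.228 for both Castor1 and Pdcd4. Without the libraries under 2 M reads, Castor1 (0.0574), Inppl1 (0.0650) and Pdcd4 (0.0744) lost theirs, and by edgeR's quasi-likelihood test Castor1 (0.0647) and Foxo6 (0.0598).

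**Figure D5:**
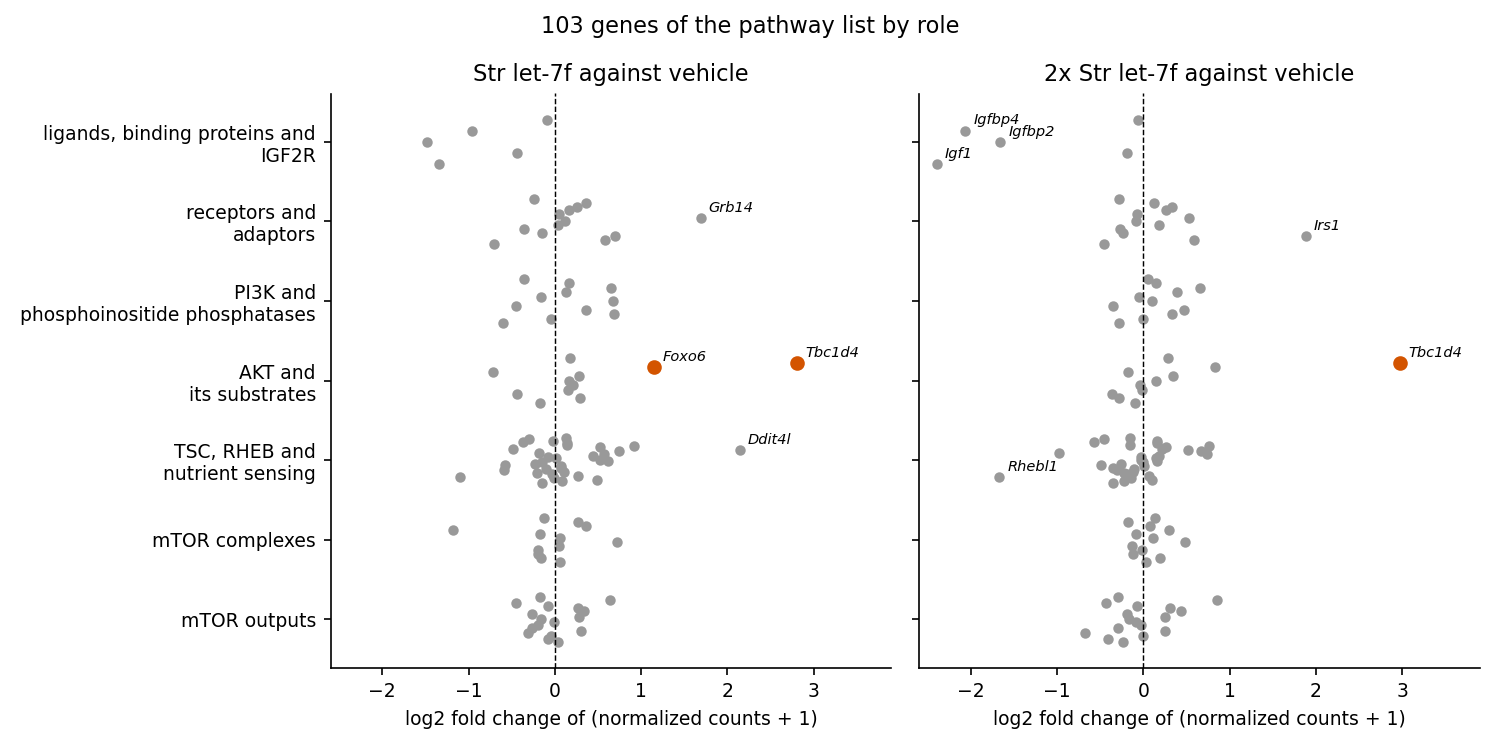
Log2 fold change of (normalized counts + 1) (x axis) for the 103 tested genes of the pathway list, grouped by role (y axis), for Str let-7f and 2x Str let-7f against vehicle. Orange points passed at an adjusted p under 0.05, and names mark these and changes beyond 1.5 in size; Tbc1d4 is called in both panels and Foxo6 in the left one.

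Other genes of the list came near the threshold without passing. For Str let-7f these were Grb14, an adaptor that restrains the insulin receptor (1.69 ± 0.49, limma adjusted p = 0.0674), and Prkaa1, a catalytic subunit of the energy sensor AMPK (0.52 ± 0.16, limma adjusted p = 0.09999), beside Inppl1 (0.66 ± 0.19, limma adjusted p = 0.0658) and Pdcd4 (-0.45 ± 0.14, limma adjusted p = 0.0790). For 2x Str let-7f they were Seh1l (-0.45 ± 0.12, limma adjusted p = 0.0508), Rhebl1 (-1.67 ± 0.47, limma adjusted p = 0.0698) and Castor1 (0.74 ± 0.22, limma adjusted p = 0.0818). Over both mimic groups, Prkaa2 (0.84 ± 0.28, limma adjusted p = 0.0972), Eif4ebp2, a repressor of cap-dependent translation (0.28 ± 0.09, limma adjusted p = 0.0983), and Atg13, an autophagy factor that mTOR phosphorylates (0.39 ± 0.13, limma adjusted p = 0.124), came next, with Insr among them. Between the mimic groups small p values belonged to Akt2, Grb14 (-1.16 ± 0.54) and Stk11, the kinase LKB1 that activates AMPK (-0.29 ± 0.14), each with an adjusted p near 1.

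Of 12 listed ligands, binding proteins and the IGF2 clearance receptor, 5 were tested, and 0 of 5 were called in any comparison. Of all tested genes 2.63% were called for Str let-7f, 1.89% for 2x Str let-7f, 4% for both averaged and 0% between the mimic groups. A count of 0 of 5 lies near these shares. The values of the 5 genes are given after being seen. Igf1, a ligand of IGF1R, ran from 5.94 to 281 normalized counts in vehicle (median 169.6), from 6.33 to 173 in Str let-7f (median 37.0) and from 2.57 to 94.0 in 2x Str let-7f pools (median 18.8). Its log2 fold change was -1.34 ± 0.89 (limma adjusted p = 0.516) and -2.39 ± 1.01 (limma adjusted p = 0.301). Some low Igf1 values behind these changes were 1 read, below the floor of 3 reads. The 6.33 (replicate 9) was 1 read, where the floor equals 19.0 normalized counts. At the higher concentration 2.57 (replicate 2) and 5.16 (replicate 4) were 1 read each, with floors of 7.72 and 15.5. The lowest vehicle value, 5.94, was 5 reads, above its floor of 3.57. Igf2, the embryonic IGF, averaged 521 ± 155, 376 ± 83.6 and 493.1 ± 249 normalized counts in vehicle, Str let-7f and 2x Str let-7f pools (limma adjusted p = 0.462 and 0.867 against vehicle). Igf2r, which clears IGF2, averaged 4316 ± 238, 4072 ± 508 and 4142 ± 377. Igfbp2 and Igfbp4, which bind IGFs outside the cell, stood at -1.49 ± 0.78 and -0.96 ± 0.85 for Str let-7f and at -1.66 ± 0.88 and -2.06 ± 0.97 for 2x Str let-7f on the log2 scale. Igfbp2 was low, averaging 23.7 ± 17.2, 10.5 ± 10.6 and 9.15 ± 8.03 normalized counts in vehicle, Str let-7f and 2x Str let-7f pools. It had 0 reads in 1 pool of each mimic group and 62 reads in all 2x Str let-7f pools together. The lowest Igfbp4 value with 2x Str let-7f, 5.16, was 1 read in replicate 4. The mean of Igfbp4 was 173 ± 81.5 normalized counts in vehicle and 173 ± 177 with Str let-7f, so its negative log2 value there is not a lower mean. On the log2 scale all 5 lay below 0 in both comparisons, which share the vehicle pools, as did 7809 and 7637 of all 15068 tested genes.

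Of 13 receptors and adaptors and of 12 genes of the mTOR complexes 0 were called in any comparison. Of 11 genes of PI3K and the phosphoinositide phosphatases 1 rose (Inppl1), of 34 genes of TSC, RHEB and nutrient sensing 1 rose and 2 fell (Castor1, Seh1l and Rhebl1), and of 17 mTOR outputs 1 fell (Pdcd4), each with both mimic groups averaged. Over all tested genes 2.67% rose and 1.33% fell in that comparison. In the others 2.63% (Str let-7f), 1.89% (2x Str let-7f) and 0% (between the mimic groups) of all tested genes were called. With both mimic groups averaged, 2 of 11 genes of AKT and its substrates rose (Tbc1d4 and Foxo6). The median log2 fold change was then 0.11 for receptors and adaptors, 0.01 for mTOR complexes and -0.10 for mTOR outputs, against -0.01 for all tested genes. It was -1.51 for the 5 ligand group genes, 0.16 for PI3K and phosphatases, 0.09 for AKT and its substrates and -0.03 for TSC, RHEB and nutrient sensing.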

How the data were processed

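Per the labels' protocols, total RNA of pooled mouse blastocysts had its ribosomal RNA removed before stranded library preparation with a kit for small RNA amounts. The submitters' processing notes name the build GRCm39, MultiQC 1.28, FastQC 0.12.1, DESeq2 1.48.2, kallisto 0.50.1 and Trimmomatic 0.39. How transcripts were summed to genes is not given in the sources used here. The deposited values are a signal per gene, gene counts scaled by the authors with 1 factor per library. In every library 100% of values were whole multiples of 1 read (tolerance 0.01), so reads and depths were recovered. An entry without a gene name, with 0.0286% to 0.0618% of reads, was left out. kallisto divides reads among similar transcripts. Floors of 3 reads cover counting error only.

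Values were taken as log2(normalized count + 1) for genes reaching 10 in 5 or more libraries. All 20 libraries entered a single fit with limma 3.58.1 (R 4.3.3), with group means as coefficients and limma's trend option. Calls used a two-sided Benjamini-Hochberg adjusted p under 0.05 over all 15068 genes. Adding 1 shrinks fold changes of low genes. Single low pools weigh more on this scale than in group means and can enlarge them, as for Igfbp4 with Str let-7f. Alternatives included edgeR 4.0.16 and DESeq2 1.42.0 on recovered reads. Whether females or injection days differed between pools is not in the labels, and p-values therefore cover only the spread between these pools, which may be technical. Replicate numbers are shared between groups, and the labels attach no meaning to them.

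The members, the pathway list and the tests were chosen with earlier results of these data known. Named genes were the members, list genes that passed in any comparison, the 4 with the smallest p that did not pass in each, Lin28a, Trim71 and the 3 genes most like Igf1r, Insr and Mtor. The ligand group is described outside that rule, and 1 gene that the rule names is not reported here. UTR sequences and lengths came from GENCODE M21 on GRCm38, another build than the authors', so no genome coordinates are given. Of the tested genes 13226 matched a coding gene under their symbol, 149 more under an older name, and 1693 had no match.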

Additional observations from a re-analysis of the deposited data

Results flagged for a closer look

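Among 29 named genes in 3 groups each, 87 sets of pools in all, 9 held a pool whose gap to its nearest neighbour was large for the range of its group. The limit used gives about 1 in 20 such sets for normally distributed values, a rate that was not checked for these counts. Of the 9 pathway members 2 did, both in vehicle replicate 2, where Rptor stood at 2095 normalized counts (951 to 1266 in the other vehicle pools) and Rictor at 946 (676 to 782). In the same pool Igfbp2 stood at 58.2 (5.35 to 27.7 in the others). Vehicle replicate 3 stood apart for Seh1l, at 808 (621 to 678). Str let-7f replicate 9, the shallowest library at 1.54 M reads, stood apart for Rhebl1 at 69.7 (21.5 to 30.3, from 11 reads), for Prkaa1 at 931 (536 to 685) and for Igf2r at 5174 (3557 to 4309). Stk11 stood at 1388 in Str let-7f replicate 2 (912 to 1115), and Lin28a at 1252 in 2x Str let-7f replicate 1 (521 to 701). The part of depth or of single pools in these values was not tested.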

How the results depend on the processing

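No member was called in any of 31 alternative settings, 20 of which left out 1 library each. The smallest adjusted p was 0.0536, for Insr with both mimic groups averaged and without Str let-7f replicate 1. Of 1112 recomputed member values 1060 kept their direction and 52 changed sign, none beyond 0.199 in size. The cause of changes given here was not tested. Leaving out libraries changed both their number and which pools remained.

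For Str let-7f against vehicle, 397 of all genes were called, 767 by DESeq2, 617 with array weights and 201 in libraries over 5 M reads. List genes called, 2 as reported, were 9, 6 and 1 in these settings and 1 with the replicate block. For 2x Str let-7f, 285 of all genes became 621 by DESeq2, 647 with array weights, 185 without libraries under 2 M reads and 68 in libraries over 5 M. The list count of 1 became 2 with log2(value + 0.5), a filter of at least 50, TMM scaling, the replicate block or libraries over 5 M reads, 5 by DESeq2 and 6 with array weights. Averaged over both mimic groups, 602 became 1005, 1051 and 276 by DESeq2, array weights and libraries over 5 M reads. The list count of 7 became 15 with array weights, 3 with the replicate block, 4 without libraries under 2 M reads and 2 in libraries over 5 M. From Str let-7f to 2x Str let-7f, 0 became 1 by edgeR and 11 by DESeq2.

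Leaving out 1 library gave 144 to 330 genes for 2x Str let-7f (144 to 188 without any of 2x Str let-7f replicates 2 to 5 or vehicle replicates 2 and 3), 397 to 684 with both averaged (lowest without vehicle replicate 2) and 0 to 1 between the mimic groups. List counts ran from 1 to 3, 1 to 2 and 1 to 7 for Str let-7f, 2x Str let-7f and both.

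Member values that changed sign were, for 2x Str let-7f, Igf1r at 0.20 in libraries over 5 M reads and Mtor at -0.043 with array weights and -0.025 with the replicate block. With both averaged they were Rptor at -0.0058 (TMM), -0.0026 (array weights) and -0.070 (replicate block), and Akt2 at -0.018 (TMM), -0.10 (replicate block), -0.016 (without libraries under 2 M reads) and -0.12 (over 5 M). Between the mimic groups they were Insr at -3.19e-05 (TMM), -0.0052 (edgeR) and -0.0081 (without libraries under 2 M reads), Irs2 at 0.017 and Rictor at -0.046 (array weights). Without single libraries, values ran from -0.32 to 0.028 for Irs2 under Str let-7f, and under 2x Str let-7f from -0.044 to 0.070 for Mtor and from -0.42 to 0.025 for Akt2. Averaged over both they ran from -0.045 to 0.15 for Rptor and from -0.13 to 0.16 for Akt2. Between mimic groups values ran from -0.14 to 0.15 for Insr, -0.26 to 0.091 for Irs2, -0.11 to 0.017 for Mtor and -0.017 to 0.13 for Rictor.

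Deviations of same-numbered pools of different groups had correlations across genes of -0.01 to 0.09 over 14 pairs (median 0.05). For pools with different numbers they were -0.11 to 0.12 over 117 pairs (median -0.01). Whether a number marks a shared batch was not tested, and the replicate block is given as an alternative. It left member counts at 0. Counting any annotated 3′ UTR, 2476 genes (18.6%) held a seed match, and 8 of the 9 members as before. Of the members, Irs1 and Irs2 had the fewest reads per library, 0 to 40 and 9 to 169, followed by Igf1r at 11 to 962.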
